A study of Mus musculus with 12 samples.

Results

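The genes of the major histocompatibility complex (MHC) and of antigen presentation were followed in the lumbar intervertebral disc of the mouse. The members were set by gene symbol, with earlier results of these data known. They were every gene whose symbol on the array begins with H2-, and 13 genes listed by name that assemble, load or regulate MHC molecules or resemble them. They came to 46 of the 19505 genes measured, each with 1 transcript cluster, the array's unit for a gene. Of these, 33 belong to the class I pathway, 10 to the class II pathway and 2 are class I-like, and H2-Ke6 lies in the MHC region but codes for a hydroxysteroid dehydrogenase. Cd74 and Nlrc5 were on the list and were not analysed here.

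The study set mice haploinsufficient for TonEBP (TonEBP +/-), the osmolarity-responsive transcription factor encoded by Nfat5, against wild-type (WT) mice. The titles of the WT arrays name C57BL/6, and those of the TonEBP +/- arrays name the genotype alone. All animals were aged 12 months with no treatment named, and the nucleus pulposus (NP), the gelatinous core of the disc, and the annulus fibrosus (AF), its fibrous ring, were taken from the lumbar levels. There were 4 groups of 3 arrays: NP TonEBP +/-, NP WT, AF TonEBP +/- and AF WT. Each array held RNA pooled from the discs of 1 animal, and the labels do not say whether an NP and an AF sample came from the same mouse. How the TonEBP allele was made is not given in the sources used here, nor is the sex of the animals, a scan date or a batch.

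Class I molecules pair a heavy chain with the light chain B2m and show peptides from inside the cell to CD8 T cells. Their peptides are cut by the proteasome, pumped into the endoplasmic reticulum by Tap1 and Tap2, and loaded with the help of Tapbp. Class II molecules pair an alpha with a beta chain, show peptides taken up from outside to CD4 T cells, and are made mainly by dendritic cells, macrophages and B cells under the control of Ciita. The healthy disc has few blood vessels and few immune cells, and its inner cells are held to be shielded from the immune system. In bulk tissue, fewer cells of a type and less RNA per cell cannot be told apart.

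The promoters of 4 of the 5 members that were higher in AF TonEBP +/- discs, and that of H2-K1 as the companion of H2-D1, are shown because the results turn on these genes. Each window runs from 250 bases before the annotated start to 50 bases after it, 5′ to 3′ on the gene's own strand, from RefSeq on GRCm38.p6. B2m lies at chr2:122147437-122147736 on the plus strand and H2-D1 at chr17:35262844-35263143 on the plus strand. H2-K1 lies at chr17:34000298-34000597 on the minus strand, Psmb8 at chr17:34197945-34198244 on the plus strand and H2-Aa at chr17:34287774-34288073 on the minus strand. Capitals mark letters that match 1 of 6 motifs on either strand: CCAAT (the CCAAT box), TGACG (the core of the cAMP response element), GGGGATTCC (an NF-kB element), GAAA-NN-GAAA and GAA-NN-GAAA (interferon-stimulated response elements, the longer and the shorter form) and TGGAAA (the core of TonE, the element TonEBP binds).
B2m: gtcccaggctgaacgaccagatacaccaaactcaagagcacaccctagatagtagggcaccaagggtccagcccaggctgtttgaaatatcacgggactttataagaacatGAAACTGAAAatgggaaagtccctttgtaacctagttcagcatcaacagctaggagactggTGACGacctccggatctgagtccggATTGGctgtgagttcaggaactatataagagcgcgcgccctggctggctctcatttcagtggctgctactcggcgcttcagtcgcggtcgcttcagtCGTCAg
H2-D1: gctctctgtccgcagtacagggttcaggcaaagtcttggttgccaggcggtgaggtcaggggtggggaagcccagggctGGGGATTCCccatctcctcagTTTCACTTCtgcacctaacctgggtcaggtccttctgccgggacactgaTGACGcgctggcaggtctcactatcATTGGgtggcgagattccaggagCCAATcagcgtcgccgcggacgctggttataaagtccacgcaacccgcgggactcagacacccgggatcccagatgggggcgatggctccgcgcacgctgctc
H2-K1: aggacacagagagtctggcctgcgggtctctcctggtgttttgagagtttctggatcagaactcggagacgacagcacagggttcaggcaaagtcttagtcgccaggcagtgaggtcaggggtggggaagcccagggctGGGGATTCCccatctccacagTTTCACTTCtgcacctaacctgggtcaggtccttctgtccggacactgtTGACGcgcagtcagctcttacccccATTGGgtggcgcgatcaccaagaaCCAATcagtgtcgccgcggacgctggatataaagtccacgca
Psmb8: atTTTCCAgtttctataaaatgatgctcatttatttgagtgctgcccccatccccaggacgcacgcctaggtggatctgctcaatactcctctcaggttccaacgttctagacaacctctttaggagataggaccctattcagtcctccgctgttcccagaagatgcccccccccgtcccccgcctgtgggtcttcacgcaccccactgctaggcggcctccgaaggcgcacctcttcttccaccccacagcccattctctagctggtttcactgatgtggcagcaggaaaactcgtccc
H2-Aa: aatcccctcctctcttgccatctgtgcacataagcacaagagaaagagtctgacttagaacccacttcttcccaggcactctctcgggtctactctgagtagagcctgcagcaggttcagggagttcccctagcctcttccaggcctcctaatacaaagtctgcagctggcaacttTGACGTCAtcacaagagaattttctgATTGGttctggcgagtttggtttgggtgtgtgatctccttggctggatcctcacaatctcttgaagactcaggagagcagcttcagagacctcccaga

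The B2m window held the interferon element at bases -139 to -130, a cAMP core at -78 to -74, a CCAAT box at -53 to -49 and another cAMP core, on the opposite strand, at 45 to 49, counted from the start. The H2-D1 window held the NF-kB element at -171 to -163, the shorter interferon element at -150 to -142, a cAMP core and a pair of CCAAT boxes. H2-K1 held the same matches in the same order, closer to its annotated start, and its longest run identical to H2-D1 was 47 bases. The H2-Aa window held a cAMP core on both strands, overlapping, at -74 to -67, and a CCAAT box at -48 to -44. The Psmb8 window held 1 match, the TonE core at -248 to -243 on the opposite strand. Windows were found for 37 of the 46 members, 40 in all, and H2-Ab1 was not among them. CCAAT was in 32 of the 40, against 37.4% of all 32851 windows, and the NF-kB element in 3 of the 40, those of H2-D1 and the pair for H2-K1, against 0.25%. TGACG was in 15, against 20.8%, TGGAAA in 14, against 21.4%, GAAA-NN-GAAA in 4, against 3.44%, and GAA-NN-GAAA in 6, against 7.52%. Tap1 and Psmb9 are transcribed in opposite directions from a shared start region, and their windows had 275 bases in common. These matches describe letters and not binding.

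Signals are on a log2 scale. A cluster was read as above background where it passed the 95th percentile of the array's background probe sets, which was 7.11 to 7.33 in NP and 7.73 to 7.98 in AF. The tissue labels were set against marker genes: 7 notochord and NP genes averaged 14.40 to 14.72 on the NP arrays and 8.91 to 10.71 on the AF arrays, and 8 AF and tendon genes averaged 7.83 to 8.50 on the NP arrays and 10.85 to 12.20 on the AF arrays. The 10.71 was that of AF WT array 1, and the other AF arrays had 8.91 to 9.54 for the NP genes. Of the tendon genes, Scx, Mkx and Tnmd were at background on every array. The AF list did not run one way: Fmod and Scx passed as higher in NP in both genotypes and Mkx in TonEBP +/-, while Dcn, Col1a1, Col1a2, Lum and Tnmd passed as lower in both. Between genotypes in AF, 1 of the 7 NP genes passed as lower in TonEBP +/-, with a list median of -0.53. Of the 8 AF and tendon genes, 3 passed as higher and 1 as lower, against 2.76% and 3.31% of all clusters. Whether the AF samples differed in tissue content was not tested. AF TonEBP +/- array 3 had an interquartile range of 3.11, against 2.36 to 2.66 on the other AF arrays, and stood apart. Nfat5 itself read 9.06, 9.62 and 9.09 in NP TonEBP +/-, against 9.12, 8.80 and 8.34 in NP WT, and 8.91, 8.94 and 8.74 in AF TonEBP +/-, against 7.70, 8.69 and 9.93 in AF WT. It was not lower in TonEBP +/- samples, the limma adjusted p being 1 in NP and 0.923 in AF. Where the array's probes lie relative to the altered part of Nfat5 is not known here, so this reading does not check the genotype, and group names follow the labels.

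In AF, 5 members rose in TonEBP +/- discs: B2m, the light chain of class I molecules, by 4.81-fold, the class I heavy chain H2-D1 by 1.98-fold, the immunoproteasome subunit Psmb8 by 2.13-fold, and both chains of the class II molecule I-A, H2-Aa by 2.23-fold and H2-Ab1 by 2.01-fold. H2-M10.5, a non-classical class I gene, fell, and no fold is given for it, since only 1 of 3 AF TonEBP +/- arrays was above background. These 6 of 46 members passed a limma adjusted p of 0.05, and so did 6.07% of all 22206 clusters (2.76% higher and 3.31% lower). At an unadjusted p under 0.05 there were 16 members, and 5158 of all 22206 clusters. The 3 arrays of each genotype did not overlap for 14 members that were higher in TonEBP +/-, as for 10.0% of all clusters, and for 5 that were lower, as for 12.3%. All 10 class II members had a positive difference, with a median of 0.52 on the log2 scale, against -0.04 over all clusters. So did all 7 processing genes of class I, with a median of 0.67. Of these, 4 class II members and 1 processing gene were above background on no array. The medians were 0.68 over the 6 other class II members and 0.58 over the 6 other processing genes. The 33 class I members as a whole had a median of 0.17.

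This count rests on few arrays. With the 6 AF arrays fitted alone, 0 members passed the limma adjusted p and 14 had an unadjusted p under 0.05. Of all 22206 clusters 3 passed and 3814 had an unadjusted p under 0.05. The AF arrays were more variable than the NP arrays with which they shared an estimate of spread, with a median residual SD over clusters of 0.362 in AF and 0.263 in NP. Without AF TonEBP +/- array 3 only B2m of these members passed. The count was 1, 13 and 1 without AF TonEBP +/- array 1, 2 and 3, and 2, 1 and 2 without AF WT array 1, 2 and 3. Over all clusters the same 6 fits called 267, 4029 and 81, and 463, 193 and 576. It was 5 or 6 without any 1 NP array. B2m passed in all 12 of these fits.

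In NP, none of the 46 members passed the limma adjusted p of 0.05, at which 0.113% of all clusters were called, all 25 of them lower in TonEBP +/-. At an unadjusted p under 0.05 there were 5 members, Psmb8, Psmb9, H2-D1, H2-T-ps and H2-Ob, with negative differences of -0.54 to -0.92. Of all 22206 clusters, 827 had an unadjusted p under 0.05, in either direction. The differences of 33 members were negative, 27 of the 33 in class I (23 with array medians subtracted), and the medians were -0.21 for class I and -0.21 for class II, against 0.01 over all clusters. The 3 arrays of both genotypes did not overlap for 9 members, all lower in TonEBP +/-, as was the case for 5.93% of all clusters. None was higher without overlap, against 5.34%. A p that misses the threshold does not show that these genes were alike in both genotypes.

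The genotype difference itself differed between the tissues for 4 members, B2m, H2-D1, Psmb8 and Psmb9, in each case lower in NP than in AF (limma test of the interaction, 0.887% of all clusters called, 0.766% lower and 0.122% higher). At an unadjusted p under 0.05 there were 12 members, and 3119 of all 22206 clusters. All 10 class II members and all 7 processing genes had a negative interaction, with medians of -0.78 and -0.71, against 0.05 over all clusters, but no class II member passed. Of these, 4 class II members and 1 processing gene were above background on no array. The count was 0 without AF WT array 2, NP WT array 2, NP TonEBP +/- array 1 or NP TonEBP +/- array 2. It was 1 without AF WT array 3, AF TonEBP +/- array 1 or 3, NP WT array 1 or NP TonEBP +/- array 3. It was 6 without AF TonEBP +/- array 2, and 4 without AF WT array 1 or NP WT array 3. Of all clusters 197 were called with all arrays, 1319 without AF TonEBP +/- array 2 and 22 to 273 in the other 11 fits. After quantile normalization 3 members passed, without Psmb9.

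Between the tissues, class II genes were lower in NP than in AF: 10 of 10 in TonEBP +/- mice and 8 of 10 in WT mice passed the limma adjusted p. Of these 10, 4 were above background on no array. Of the 6 others, 6 passed in TonEBP +/- and 5 in WT, and H2-Eb1, H2-DMb2 and H2-Ob were at background on every NP array. Of all 46 members, 32 passed in TonEBP +/- (29 lower in NP and 3 higher), against 56.2% of all clusters (25.3% lower and 30.9% higher). In WT, 25 passed (21 lower and 4 higher), against 65.0% of all clusters (31.3% lower and 33.7% higher). The tissues did not overlap in TonEBP +/- for 27 members that were lower in NP, as for 28.2% of all clusters, and for 2 that were higher, as for 32.1%. In WT they did not overlap for 24 that were lower, as for 35.5%, and for 7 that were higher, as for 36.1%. NP arrays had a lower median signal than AF arrays, 6.82 to 6.87 against 7.43 to 7.64, so tissue differences are given after each array's own median was subtracted. NP arrays also had a wider interquartile range, 3.61 to 3.80 against 2.36 to 3.11, which subtracting medians leaves in place. Among clusters above background on at least 3 arrays, the median difference was then 0.63 in TonEBP +/- and 0.84 in WT. Of these clusters, 5997 passed as higher in NP and 2513 as lower in TonEBP +/-, against 3 and 18 members. In WT 6637 passed as higher and 2974 as lower, against 4 and 13 members. On the deposited values the median of all clusters was -0.75 in TonEBP +/- and -0.84 in WT. There 40 members passed in TonEBP +/-, all lower in NP, and 37 in WT, of which 1 was higher. Of all 22206 clusters, 16510 passed there in TonEBP +/- (12073 lower and 4437 higher) and 17387 in WT (12466 lower and 4921 higher). Both on the deposited values and after quantile normalization, Tap1, Tap2, H2-T10, H2-T24, H2-T3 and Cd1d1 passed as lower in NP in TonEBP +/-, and H2-K1, H2-Ab1, Tap1, H2-T24, H2-T3, H2-T-ps and Cd1d1 in WT, although none of them passed there with medians subtracted. The median of the class II members was -1.71 in TonEBP +/- and -1.12 in WT, and that of the class I members was -0.71 in TonEBP +/- and -0.46 in WT. These medians moved with the scaling: class II stood at -2.40 in TonEBP +/- and -1.86 in WT on the deposited values and at -2.48 and -1.69 after quantile normalization. Class I stood at -1.40 in TonEBP +/- and -1.20 in WT on the deposited values and at -0.85 and -0.78 after quantile normalization. Class II differences were below 0 for 10 of 10 members in both genotypes, and also on the deposited values, but for 9 of 10 in WT after quantile normalization, where Ciita, above background on no array, was above 0. Each group's arrays enter 1 genotype and 1 tissue comparison, so these are not independent of each other.

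B2m was far above background on every array. In AF it read 17.43, 17.27 and 18.53 in AF TonEBP +/-, against 15.59, 14.98 and 15.87 in AF WT. All 3 AF TonEBP +/- arrays lay above all 3 AF WT arrays, and array 3 was the highest. The difference was 2.27 ± 0.335 on the log2 scale (SE, n = 3 each), a 4.81-fold rise (limma adjusted p = 0.00573), and 1.88 without AF TonEBP +/- array 3 (limma adjusted p = 0.0157). With the 6 AF arrays alone the limma adjusted p was 0.0961. In NP it read 14.73, 15.10 and 15.60 in NP TonEBP +/-, against 15.17, 15.55 and 15.58 in NP WT, and the groups overlapped. The NP difference was -0.29 ± 0.335 (limma adjusted p = 1).

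The interaction of B2m was -2.56 ± 0.474 (limma adjusted p = 0.0207). It ran from -2.80 without AF TonEBP +/- array 2 to -2.17 without AF TonEBP +/- array 3, and its limma adjusted p exceeded 0.05 without AF WT array 2, NP WT array 2 or NP TonEBP +/- array 1 or 2, the highest being 0.0724. Between the tissues B2m was 3.77-fold lower in NP than in AF of TonEBP +/- mice (difference -1.91 ± 0.353, limma adjusted p = 0.000252). That difference was -2.60 on the deposited values and -3.02 after quantile normalization. In WT mice the difference was 0.70 ± 0.353 (limma adjusted p = 0.0941), but -0.04 on the deposited values (limma adjusted p = 0.91) and -1.05 after quantile normalization (limma adjusted p = 0.00598).

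H2-D1 and H2-K1 code for the classical heavy chains of C57BL/6 mice, which present peptides to CD8 T cells. Class I heavy chain genes are close copies of each other, and since the probe sequences are not known here, a cluster may also carry signal from a related gene. H2-D1 read 11.08, 10.79 and 11.20 in AF TonEBP +/-, against 10.31, 9.72 and 10.09 in AF WT. The AF groups did not overlap. The rise was 0.98 ± 0.225 (SE, n = 3 each, limma adjusted p = 0.0249). It was 0.90 without AF TonEBP +/- array 3 (limma adjusted p = 0.0971), and the limma adjusted p also exceeded 0.05 without AF TonEBP +/- array 1 (0.0678), AF WT array 2 (0.0937) or AF WT array 3 (0.0525).

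In NP the order of the genotypes was the opposite for H2-D1, which read 7.94, 8.08 and 7.74 in NP TonEBP +/-, against 8.58, 8.46 and 8.36 in NP WT. These groups did not overlap either, but the difference of -0.54 ± 0.225 had a limma adjusted p of 1. The interaction was -1.53 ± 0.318 (limma adjusted p = 0.0353), and it passed in 3 of the 12 fits that left out 1 array, without AF WT array 1, AF TonEBP +/- array 2 or NP WT array 3, the limma adjusted p running from 0.0117 to 0.103. H2-D1 was lower in NP than in AF, by 5.31-fold in TonEBP +/- (limma adjusted p = 3.15e-07) and by 1.78-fold in WT (limma adjusted p = 0.00598). On the deposited values the log2 differences were -3.10 in TonEBP +/- and -1.57 in WT, and after quantile normalization -3.13 and -1.78.

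H2-K1 read 14.32, 14.08 and 15.35 in AF TonEBP +/-, against 14.14, 13.22 and 14.01 in AF WT, where AF TonEBP +/- array 3 was the highest and the other AF arrays overlapped. The difference was 0.79 ± 0.314 (limma adjusted p = 0.14). In NP it read 12.70, 12.61 and 12.64 in NP TonEBP +/-, against 12.87, 12.67 and 12.48 in NP WT, overlapping, with a difference of -0.03 ± 0.314 (limma adjusted p = 1). H2-K1 was 2.37-fold lower in NP than in AF of TonEBP +/- mice (limma adjusted p = 0.00492). The tissue difference in WT mice was -0.38 ± 0.334 (limma adjusted p = 0.334), and -1.92 after quantile normalization (limma adjusted p = 8.26e-06).

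**Figure D1:**
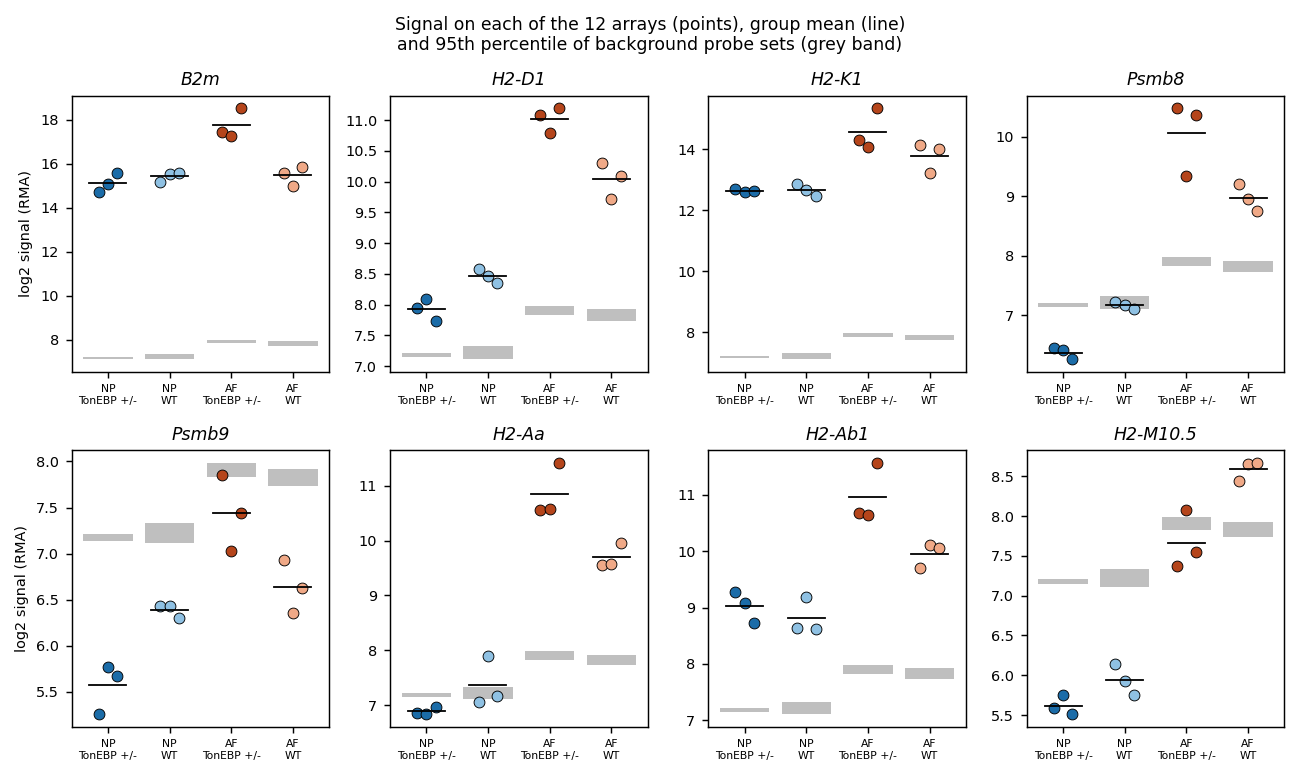
Deposited log2 signal of 8 members on each of the 12 arrays (points, vertical axis), by group (horizontal axis), with the group mean as a line and the range of the group's background levels as a grey band; each panel has its own axis. B2m, H2-D1, Psmb8, H2-Aa and H2-Ab1 lie higher on all 3 AF TonEBP +/- arrays than on all 3 AF WT arrays, H2-M10.5 lies lower, and Psmb8 was above background on none of the 6 NP arrays.

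Psmb8 is an inducible catalytic subunit that turns the proteasome into the immunoproteasome, whose peptides suit class I molecules. In AF it read 10.48, 9.34 and 10.37 in AF TonEBP +/-, against 9.21, 8.96 and 8.75 in AF WT. The lowest TonEBP +/- array, array 2, lay just above the highest WT array. The rise was 1.09 ± 0.273 (SE, n = 3 each, limma adjusted p = 0.0317). Without AF TonEBP +/- array 3 it was 0.94 (limma adjusted p = 0.132), and the limma adjusted p exceeded 0.05 without every other AF array except TonEBP +/- array 2, at 0.0539 to 0.113. In NP it read 6.45, 6.42 and 6.26 in NP TonEBP +/-, against 7.23, 7.18 and 7.11 in NP WT, none of them above background. The interaction was -1.89 ± 0.386 (limma adjusted p = 0.0316), its NP side being at background. It passed without AF WT array 1, AF TonEBP +/- array 2 or NP WT array 3 and in no other fit that left out 1 array.

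Psmb8 was at least 4.58-fold lower in NP than in AF of TonEBP +/- mice (limma adjusted p = 2.62e-07) and at least 2.03-fold lower in WT mice (limma adjusted p = 0.00452). These bounds set the AF mean against the background level of the NP arrays. Its partner subunit Psmb9 was above background on no array, and it read 5.26, 5.77 and 5.68 in NP TonEBP +/-, 6.43, 6.43 and 6.30 in NP WT, 7.86, 7.03 and 7.44 in AF TonEBP +/- and 6.93, 6.35 and 6.62 in AF WT. Its interaction of -1.63 ± 0.357 passed (limma adjusted p = 0.0421), in the full fit and in only 2 of the 12 fits without 1 array, those without AF WT array 1 and AF TonEBP +/- array 2. It did not pass after quantile normalization (limma adjusted p = 0.0547), and no fold is given for Psmb9. The third subunit, Psmb10, read 6.49, 6.30 and 5.94 in NP TonEBP +/-, 6.53, 6.80 and 6.02 in NP WT, 7.67, 7.24 and 8.23 in AF TonEBP +/- and 7.07, 6.94 and 7.13 in AF WT. Psmb10 was above background on AF TonEBP +/- array 3 alone, so it too is given with no fold. Both subunits passed the tissue test in TonEBP +/-, lower in NP (limma adjusted p = 0.00117 for Psmb9 and 0.0329 for Psmb10). That of Psmb10 was lost after quantile normalization (limma adjusted p = 0.0798), with the 6 TonEBP +/- arrays alone (0.0639) and in 4 of the 12 fits without 1 array. After quantile normalization Psmb9 passed as higher in NP in WT, by 0.78 (limma adjusted p = 0.0296).

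Tap1 and Tap2 form the transporter that moves peptides into the endoplasmic reticulum. Tap1 read 8.41, 8.25 and 8.92 in NP TonEBP +/-, 8.60, 8.49 and 8.92 in NP WT, 9.68, 9.37 and 10.72 in AF TonEBP +/- and 9.65, 9.72 and 9.51 in AF WT. Tap2 read 8.53, 8.26 and 8.33 in NP TonEBP +/-, 8.26, 8.46 and 8.51 in NP WT, 9.35, 9.14 and 9.63 in AF TonEBP +/- and 8.76, 8.48 and 8.87 in AF WT. For Tap2 the AF genotypes did not overlap, with a difference of 0.67 ± 0.218 (limma adjusted p = 0.0778), and for Tap1 the AF difference was 0.29 ± 0.305 (limma adjusted p = 0.606), with array 3 of AF TonEBP +/- the highest. Neither passed between NP and AF with medians subtracted, the limma adjusted p for Tap1 being 0.0745 in TonEBP +/- and 0.568 in WT, and for Tap2 0.262 and 0.0976.

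Tapbp, or tapasin, holds an empty class I molecule to the transporter, and Erap1 trims peptides there to length. Tapbp read 11.83, 12.12 and 11.76 in NP TonEBP +/-, 12.36, 11.61 and 11.78 in NP WT, 12.05, 11.84 and 12.02 in AF TonEBP +/- and 11.62, 11.35 and 11.74 in AF WT. Erap1 read 9.08, 9.17 and 9.07 in NP TonEBP +/-, 9.34, 9.17 and 8.81 in NP WT, 9.40, 9.20 and 10.21 in AF TonEBP +/- and 9.15, 9.35 and 8.84 in AF WT. Both were well above background in both tissues, unlike the immunoproteasome subunits in NP. Their AF genotype differences were 0.40 ± 0.238 for Tapbp and 0.49 ± 0.268 for Erap1 (limma adjusted p = 0.34 and 0.291). After median subtraction Tapbp was higher in NP than in AF, by 0.62 in TonEBP +/- (limma adjusted p = 0.0399) and 1.09 in WT (limma adjusted p = 0.00119), and Erap1 was higher by 0.73 in WT (limma adjusted p = 0.0318). These directions depended on the scaling: Tapbp was -0.07 in TonEBP +/- on the deposited values and -0.66 after quantile normalization, where it passed as lower in NP (limma adjusted p = 0.0278). Tapbp in WT was -0.43 after quantile normalization, and Erap1 in WT was -0.01 on the deposited values and -0.14 after quantile normalization. With medians subtracted, the TonEBP +/- call of Tapbp was lost with a trended, robust prior on the variances (limma adjusted p = 0.0671), with the 6 TonEBP +/- arrays alone (0.0541) and in 5 of the 12 fits without 1 array, and the WT call of Erap1 in 4 of the 12.

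Of 14 further genes of peptide loading and class I accessory function, 2 rose in AF TonEBP +/- and none fell: Calr, the chaperone calreticulin, by 1.03 (limma adjusted p = 0.0487), and Psme1, a proteasome activator subunit, by 1.08 (limma adjusted p = 0.0314). Calr ran over 15.84 to 17.25 in AF TonEBP +/-, against 15.22 to 15.60 in AF WT, and Psme1 over 12.72 to 13.81 in AF TonEBP +/-, against 12.08 to 12.58 in AF WT. The share of all clusters called higher in AF was 2.76%. The list's median difference was 0.36, and neither gene passed without AF TonEBP +/- array 3, AF WT array 1 or AF WT array 2. In NP none of the 14 passed, with a median of 0.11, and 1 had an unadjusted p under 0.05, as had 827 of all 22206 clusters.

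**Figure D2:**
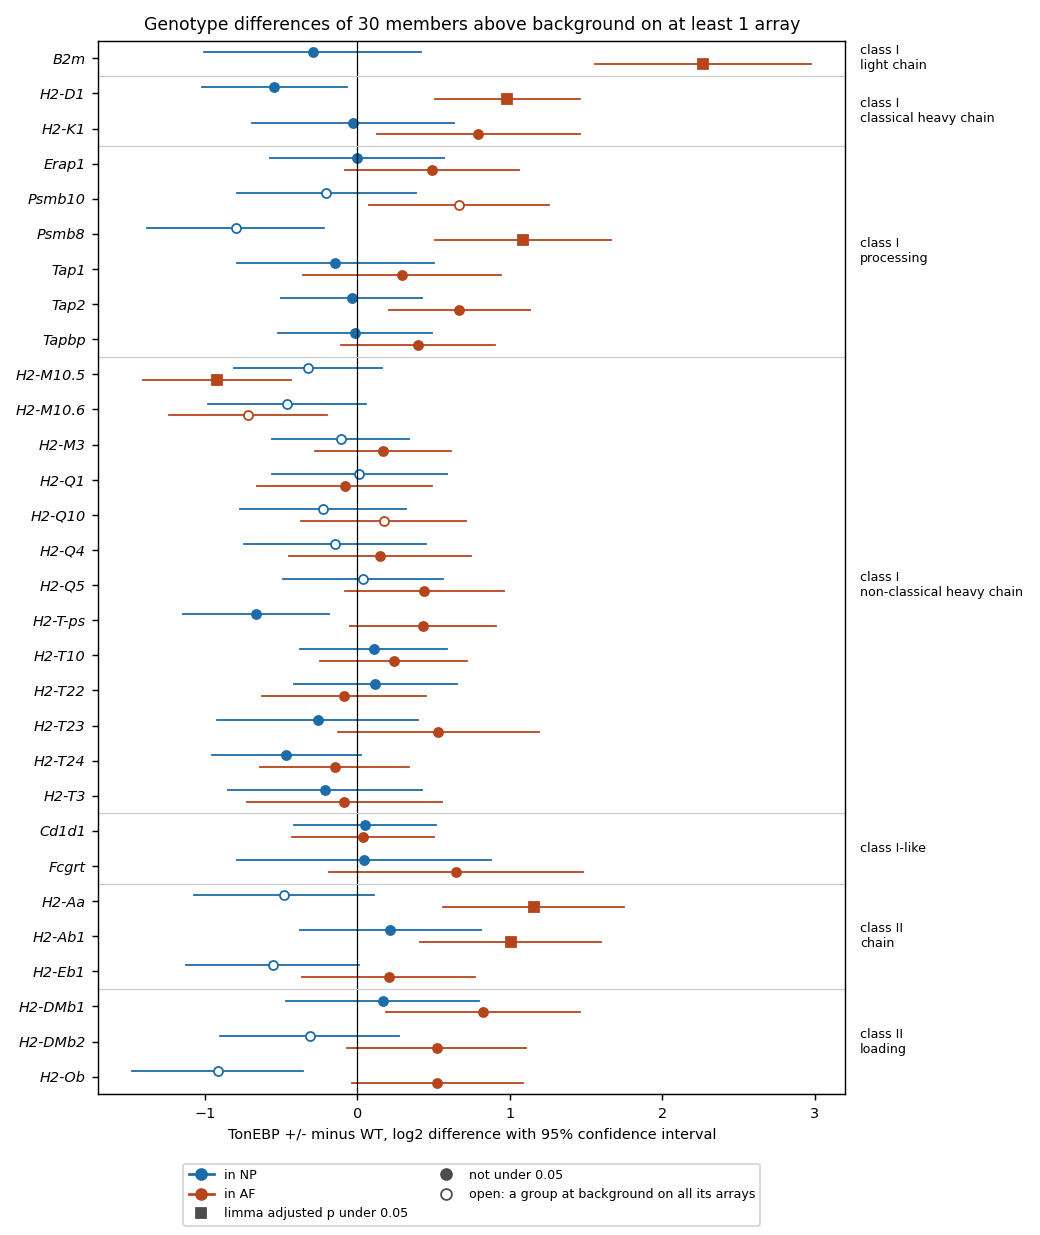
Difference between TonEBP +/- and WT (log2, horizontal axis) with its 95% confidence interval for the 30 members above background on at least 1 array, in NP and in AF, grouped by role; squares mark a limma adjusted p under 0.05 and open symbols a group at background on all its arrays. The 5 squares on the right are B2m, H2-D1, Psmb8, H2-Aa and H2-Ab1 in AF, the 1 on the left is H2-M10.5 in AF, and no NP symbol is a square.

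The 23 non-classical class I genes of the Q, T and M regions differed in sign from one to the next. In AF 9 had a positive and 14 a negative difference, with a median of -0.09, which was 0.00 after subtracting array medians. Only H2-M10.5 passed. In NP 6 were positive and 17 negative, with a median of -0.22. Of the 23, 13 were above background on at least 1 array and 6 on all 12. The genotype differences of these 13 ran from -0.66 to 0.12 in NP and from -0.92 to 0.53 in AF.

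H2-M10.5 belongs to the M10 genes, known from vomeronasal neurons. It read 5.59, 5.75 and 5.51 in NP TonEBP +/-, 6.14, 5.93 and 5.75 in NP WT, 7.38, 8.07 and 7.54 in AF TonEBP +/- and 8.44, 8.65 and 8.67 in AF WT. The AF groups did not overlap. All 3 AF WT arrays, 1 of 3 AF TonEBP +/- arrays and no NP array were above background. The AF difference was -0.92 ± 0.23 (SE, n = 3 each, limma adjusted p = 0.0314). It was -0.86 without AF TonEBP +/- array 3 (limma adjusted p = 0.109), and without each other AF array except TonEBP +/- array 2 the limma adjusted p was 0.0597 to 0.105. H2-M10.6 read 6.01, 6.04 and 5.72 in NP TonEBP +/-, 6.88, 6.30 and 5.96 in NP WT, 7.34, 7.03 and 7.37 in AF TonEBP +/- and 7.93, 8.03 and 7.93 in AF WT. It was above background on the 3 AF WT arrays alone, and its AF difference of -0.72 ± 0.244 had a limma adjusted p of 0.0897. In WT mice H2-M10.5 was at least 1.55-fold lower in NP than in AF (limma adjusted p = 2.56e-06) and H2-M10.6 at least 1.01-fold lower (limma adjusted p = 0.00828). Both also passed, lower in NP, in TonEBP +/- (limma adjusted p = 7.8e-05 and 0.0417). The TonEBP +/- call of H2-M10.6 was lost after quantile normalization (limma adjusted p = 0.167), with the 6 TonEBP +/- arrays alone (0.0569) and in 8 of the 12 fits without 1 array.

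H2-T23 codes for Qa-1, which shows leader peptides of other class I molecules to natural killer cells. It read 8.73, 7.94 and 8.90 in NP TonEBP +/-, 9.06, 8.64 and 8.66 in NP WT, 11.37, 11.05 and 12.12 in AF TonEBP +/- and 11.28, 10.64 and 11.02 in AF WT. Every NP array lay under every AF array. H2-T23 was 4.92-fold lower in NP than in AF of TonEBP +/- mice (difference -2.30 ± 0.327, limma adjusted p = 1.92e-05) and 2.74-fold lower in WT mice (limma adjusted p = 0.00116). On the deposited values H2-T23 differed by -2.99 in TonEBP +/- and -2.20 in WT, and after quantile normalization by -3.16 and -2.57. Its genotype differences were -0.26 ± 0.31 in NP and 0.53 ± 0.31 in AF (limma adjusted p = 1 and 0.326).

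H2-T22 and H2-T10 carry no peptide and are bound by some gamma delta T cells. H2-T22 read 8.69, 8.48 and 9.14 in NP TonEBP +/-, 8.85, 8.49 and 8.62 in NP WT, 8.40, 7.84 and 8.58 in AF TonEBP +/- and 8.48, 8.12 and 8.48 in AF WT. H2-T10 read 9.69, 9.82 and 9.91 in NP TonEBP +/-, 9.51, 9.96 and 9.64 in NP WT, 10.22, 10.63 and 10.44 in AF TonEBP +/- and 10.40, 9.89 and 10.29 in AF WT. H2-T22 was the only heavy chain gene called higher in NP than in AF, by 2.28-fold in TonEBP +/- (limma adjusted p = 0.00134) and 2.05-fold in WT (limma adjusted p = 0.00324). On the deposited values these differences were 0.50 (limma adjusted p = 0.0844) and 0.29 (limma adjusted p = 0.297), and after quantile normalization the WT difference was 0.48 (limma adjusted p = 0.127). H2-T10 did not pass in either genotype (limma adjusted p = 0.808 in TonEBP +/- and 0.339 in WT).

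H2-T24 and H2-T-ps, of which H2-T-ps is named as a pseudogene, were above background on all 12 arrays, as was H2-T3, whose product binds CD8 on intestinal lymphocytes. H2-T24 read 8.28, 8.36 and 8.39 in NP TonEBP +/-, 8.96, 9.14 and 8.34 in NP WT, 9.58, 9.49 and 9.44 in AF TonEBP +/- and 9.78, 9.68 and 9.48 in AF WT. H2-T3 read 8.24, 7.42 and 7.70 in NP TonEBP +/-, 8.39, 7.91 and 7.70 in NP WT, 9.23, 9.44 and 8.57 in AF TonEBP +/- and 9.56, 8.79 and 9.15 in AF WT. H2-T-ps read 8.11, 7.45 and 8.02 in NP TonEBP +/-, 8.63, 8.51 and 8.42 in NP WT, 9.67, 9.98 and 9.97 in AF TonEBP +/- and 9.45, 9.39 and 9.48 in AF WT. For H2-T-ps the genotypes did not overlap in either tissue, lower in TonEBP +/- in NP (-0.66 ± 0.225, limma adjusted p = 0.806) and higher in AF (0.43 ± 0.225, limma adjusted p = 0.266). H2-T-ps was 2.5-fold lower in NP than in AF of TonEBP +/- mice (limma adjusted p = 0.000124), and its difference in WT was -0.18 (limma adjusted p = 0.502). H2-T24 and H2-T3 passed in neither tissue comparison with medians subtracted.

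The Q-region genes H2-Q4 and H2-Q5 were above background on all AF arrays and on no NP array. H2-Q4 read 6.69, 6.11 and 6.29 in NP TonEBP +/-, 6.63, 6.65 and 6.23 in NP WT, 8.36, 8.28 and 9.11 in AF TonEBP +/- and 8.75, 7.99 and 8.56 in AF WT. H2-Q5 read 6.53, 6.33 and 6.08 in NP TonEBP +/-, 6.35, 6.29 and 6.18 in NP WT, 8.49, 8.59 and 9.32 in AF TonEBP +/- and 8.44, 8.16 and 8.48 in AF WT. The tissues did not overlap. H2-Q4 was at least 1.64-fold lower in NP than in AF of TonEBP +/- mice and at least 1.39-fold lower in WT mice (limma adjusted p = 0.000397 and 0.00258). H2-Q5 was at least 1.91-fold lower in TonEBP +/- and at least 1.32-fold lower in WT (limma adjusted p = 2.32e-05 and 0.000349).

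H2-M3, which presents bacterial formylated peptides, read 6.34, 6.50 and 6.57 in NP TonEBP +/-, 6.38, 6.63 and 6.74 in NP WT, 7.95, 7.89 and 8.00 in AF TonEBP +/- and 8.04, 7.66 and 7.64 in AF WT. H2-Q1 read 6.83, 5.95 and 6.47 in NP TonEBP +/-, 6.32, 6.31 and 6.57 in NP WT, 8.26, 7.83 and 7.34 in AF TonEBP +/- and 8.02, 7.79 and 7.86 in AF WT. H2-Q10, a secreted class I molecule known from liver, read 5.87, 6.01 and 5.60 in NP TonEBP +/-, 5.95, 6.07 and 6.14 in NP WT, 7.23, 7.35 and 8.10 in AF TonEBP +/- and 7.70, 7.26 and 7.21 in AF WT. These 3 genes exceeded background on some AF arrays and on no NP array, and their AF genotypes overlapped. H2-M3 was at least 1.06-fold lower in NP than in AF of TonEBP +/- mice (limma adjusted p = 0.00553). H2-Q1 passed in both genotypes and H2-Q10 in TonEBP +/-, lower in NP, with no fold, since most of their AF signals were near background. The calls of H2-Q1 were lost in 3 of the 12 fits without 1 array in each genotype, and with the 6 TonEBP +/- arrays alone (limma adjusted p = 0.0825).

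The other 10 non-classical genes, H2-Bl, H2-M1, H2-M5, H2-M9, H2-M10.1, H2-M10.2, H2-M10.3, H2-M10.4, H2-M11 and H2-Q2, were above background on no array, and no fold is given for them. Of these, H2-M10.2 and H2-M10.4 passed the tissue test in both genotypes, H2-M10.1, H2-M10.3 and H2-M9 in WT and H2-M11 and H2-Q2 in TonEBP +/-, each lower in NP. After quantile normalization the calls were lost for H2-M10.4 in both genotypes (limma adjusted p = 0.215 in TonEBP +/- and 0.255 in WT), for H2-M10.2 (0.213) and H2-M11 (0.261) in TonEBP +/-, and for H2-M10.3 (0.0901) and H2-M9 (0.352) in WT. H2-M9 also lost its WT call in 6 of the 12 fits without 1 array, and H2-M10.2 and H2-M11 lost theirs in TonEBP +/- in 5 and 4. H2-M10.1 read 5.63, 5.39 and 5.62 in NP TonEBP +/-, 5.50, 5.88 and 5.50 in NP WT, 6.68, 7.47 and 5.80 in AF TonEBP +/- and 7.55, 7.25 and 7.53 in AF WT. H2-M10.2 read 5.94, 5.38 and 5.53 in NP TonEBP +/-, 5.56, 4.74 and 5.69 in NP WT, 6.89, 7.20 and 6.82 in AF TonEBP +/- and 7.35, 7.36 and 7.08 in AF WT. Neither passed between genotypes.

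H2-M10.3 read 5.42, 4.95 and 4.78 in NP TonEBP +/-, 5.48, 5.46 and 5.15 in NP WT, 6.12, 6.17 and 6.55 in AF TonEBP +/- and 7.36, 6.67 and 7.03 in AF WT. H2-M10.4 read 5.11, 5.13 and 4.61 in NP TonEBP +/-, 5.26, 5.02 and 5.11 in NP WT, 6.45, 6.95 and 5.71 in AF TonEBP +/- and 6.58, 6.55 and 6.77 in AF WT. H2-M9 read 4.59, 4.85 and 5.26 in NP TonEBP +/-, 4.99, 4.76 and 4.94 in NP WT, 6.61, 6.98 and 5.41 in AF TonEBP +/- and 6.88, 6.19 and 6.20 in AF WT. All values lay under the background level, which was itself higher on AF than on NP arrays. H2-M11 read 4.20, 4.69 and 5.22 in NP TonEBP +/-, 4.85, 5.30 and 4.76 in NP WT, 6.05, 6.48 and 5.79 in AF TonEBP +/- and 5.51, 5.81 and 5.59 in AF WT. H2-Q2 read 4.95, 5.44 and 4.73 in NP TonEBP +/-, 5.46, 5.21 and 5.20 in NP WT, 7.33, 7.62 and 7.35 in AF TonEBP +/- and 7.09, 6.48 and 6.30 in AF WT. With medians subtracted H2-Bl, H2-M1 and H2-M5 passed in no comparison. On the deposited values H2-Bl and H2-M5 passed as lower in NP in both genotypes and H2-M1 in WT (limma adjusted p = 0.00963).

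The class I-like gene Cd1d1 presents lipids to natural killer T cells, and Fcgrt, the neonatal Fc receptor, pairs with B2m to recycle immunoglobulin G and albumin. Cd1d1 read 8.49, 8.24 and 8.46 in NP TonEBP +/-, 8.15, 8.51 and 8.38 in NP WT, 8.85, 9.23 and 9.29 in AF TonEBP +/- and 8.92, 9.06 and 9.29 in AF WT. With medians subtracted it passed in no comparison, with tissue differences of -0.04 ± 0.221 in TonEBP +/- and -0.0025 ± 0.221 in WT. Fcgrt read 10.24, 9.93 and 9.25 in NP TonEBP +/-, 10.12, 8.89 and 10.28 in NP WT, 8.90, 8.92 and 10.05 in AF TonEBP +/- and 8.24, 8.69 and 8.98 in AF WT. Fcgrt was 2.31-fold higher in NP than in AF of TonEBP +/- mice (limma adjusted p = 0.0196), with overlap, and 3.64-fold higher in WT mice without overlap (limma adjusted p = 0.00095). On the deposited values the TonEBP +/- difference was 0.52 (limma adjusted p = 0.241) and after quantile normalization 0.42 (limma adjusted p = 0.36). The WT difference was also smaller under these scalings, 1.12 (limma adjusted p = 0.016) and 1.05 (limma adjusted p = 0.0247). After median subtraction the TonEBP +/- call of Fcgrt was lost without AF TonEBP +/- array 1 or 2 or NP TonEBP +/- array 1 or 2, at a limma adjusted p of 0.0557 to 0.0858.

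Among the class II genes, H2-Aa and H2-Ab1 code for the alpha and beta chains of I-A, the class II molecule of C57BL/6 mice. H2-Aa read 10.55, 10.58 and 11.42 in AF TonEBP +/-, against 9.55, 9.58 and 9.95 in AF WT. All AF TonEBP +/- arrays were higher than all AF WT arrays, and array 3 was the highest. The rise was 1.16 ± 0.28 (SE, n = 3 each, limma adjusted p = 0.0286), and without AF TonEBP +/- array 3 it was 0.87 (limma adjusted p = 0.126). The limma adjusted p also exceeded 0.05 without AF WT array 1 (0.0814), AF WT array 2 (0.0933) or AF TonEBP +/- array 1 (0.0529). With the AF arrays alone it was 0.118.

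H2-Ab1 read 10.68, 10.64 and 11.57 in AF TonEBP +/-, against 9.70, 10.12 and 10.05 in AF WT, again without overlap and with array 3 the highest. The rise was 1.01 ± 0.279 (SE, n = 3 each, limma adjusted p = 0.0445). Of the 12 fits that left out 1 array, H2-Ab1 passed in 2, without AF TonEBP +/- array 2 or NP WT array 2. Its rise was 0.70 without AF TonEBP +/- array 3 (limma adjusted p = 0.196), and the limma adjusted p in the other fits that failed was 0.0557 to 0.134.

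In NP, H2-Aa read 6.86, 6.84 and 6.97 in NP TonEBP +/-, against 7.05, 7.90 and 7.17 in NP WT. No TonEBP +/- array was above background and 2 of 3 WT arrays were, and the limma adjusted p was 1. H2-Ab1 stayed above background there and read 9.27, 9.09 and 8.74 in NP TonEBP +/-, against 8.64, 9.18 and 8.62 in NP WT, with a difference of 0.22 ± 0.279 (limma adjusted p = 1). The interactions were -1.64 ± 0.395 for H2-Aa and -0.79 ± 0.395 for H2-Ab1 (limma adjusted p = 0.0646 and 0.392).

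H2-Aa was at least 7.89-fold lower in NP than in AF of TonEBP +/- mice (limma adjusted p = 1.21e-07) and 2.99-fold lower in WT mice (limma adjusted p = 0.000235). H2-Ab1 was 2.36-fold lower in NP than in AF of TonEBP +/- mice (limma adjusted p = 0.00198), and in WT its difference was -0.40 ± 0.293 (limma adjusted p = 0.237). On the deposited values and after quantile normalization the WT difference of H2-Ab1 was -1.14 (limma adjusted p = 0.00154) and -1.42 (limma adjusted p = 0.000221). The difference between the chains was not tested.

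H2-Eb1 codes for the beta chain of I-E, whose partner chain C57BL/6 mice are known not to make. It read 5.28, 4.88 and 5.43 in NP TonEBP +/-, 5.45, 5.70 and 6.12 in NP WT, 8.81, 8.84 and 9.62 in AF TonEBP +/- and 8.94, 8.76 and 8.95 in AF WT. No NP array and every AF array was above background. H2-Eb1 was at least 2.33-fold lower in NP than in AF of TonEBP +/- mice (limma adjusted p = 8.62e-08) and at least 1.9-fold lower in WT mice (limma adjusted p = 2.6e-06). Its AF genotype difference was 0.21 ± 0.266 (limma adjusted p = 0.69). H2-Eb2, a related beta chain gene, was above background on no array and read 5.08, 5.31 and 5.25 in NP TonEBP +/-, 4.95, 5.52 and 4.84 in NP WT, 7.17, 7.29 and 6.50 in AF TonEBP +/- and 6.76, 6.91 and 6.31 in AF WT.

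H2-DMb1 and H2-DMb2 code for beta chains of H2-M, which swaps the placeholder peptide of class II for antigen. H2-DMb1 read 9.34, 8.98 and 8.48 in NP TonEBP +/-, 8.81, 8.79 and 8.71 in NP WT, 11.60, 10.91 and 12.11 in AF TonEBP +/- and 10.96, 10.39 and 10.78 in AF WT. H2-DMb2 read 5.85, 5.85 and 6.17 in NP TonEBP +/-, 5.89, 6.59 and 6.31 in NP WT, 9.29, 8.88 and 9.76 in AF TonEBP +/- and 9.20, 8.50 and 8.67 in AF WT. H2-DMb1 was above background on all 12 arrays and H2-DMb2 on the AF arrays only. In AF their genotype differences were 0.82 ± 0.299 and 0.52 ± 0.277 (limma adjusted p = 0.108 and 0.276). H2-DMb1 was 3.76-fold lower in NP than in AF of TonEBP +/- mice and 2.3-fold lower in WT mice (limma adjusted p = 9.42e-05 and 0.00379). H2-DMb2 was at least 2.72-fold lower in TonEBP +/- and at least 1.78-fold lower in WT (limma adjusted p = 1.06e-06 and 7.4e-05).

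H2-Ob codes for the beta chain of H2-O, which restrains H2-M and is known mainly from B cells. It read 4.87, 4.92 and 4.94 in NP TonEBP +/-, 5.84, 6.29 and 5.34 in NP WT, 8.94, 8.53 and 9.23 in AF TonEBP +/- and 8.53, 8.48 and 8.11 in AF WT. In NP the genotypes did not overlap, all values being under background. In AF they did not overlap either, but the lowest TonEBP +/- array and the highest WT array both read 8.53. The AF difference was 0.53 ± 0.264 (limma adjusted p = 0.244). H2-Ob was at least 2.04-fold lower in NP than in AF of TonEBP +/- mice (limma adjusted p = 5.18e-08) and at least 1.33-fold lower in WT mice (limma adjusted p = 3.79e-05).

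The alpha chain genes H2-DMa and H2-Oa and the class II regulator Ciita were above background on no array. H2-DMa read 5.00, 4.16 and 4.44 in NP TonEBP +/-, 4.27, 4.70 and 4.61 in NP WT, 7.14, 5.76 and 7.14 in AF TonEBP +/- and 6.29, 6.03 and 6.29 in AF WT. H2-Oa read 5.01, 4.86 and 4.96 in NP TonEBP +/-, 5.23, 5.14 and 5.09 in NP WT, 7.22, 7.21 and 6.98 in AF TonEBP +/- and 6.92, 7.12 and 6.76 in AF WT. Ciita read 5.79, 5.60 and 5.68 in NP TonEBP +/-, 6.48, 5.91 and 5.31 in NP WT, 7.26, 7.52 and 7.35 in AF TonEBP +/- and 6.71, 7.06 and 6.36 in AF WT. In AF all 3 TonEBP +/- arrays of Ciita lay above the 3 WT arrays, within the background range, with a limma adjusted p of 0.164. H2-Eb2, H2-DMa and H2-Oa passed the tissue test in both genotypes and Ciita in TonEBP +/-, each lower in NP, and no fold is given. In WT the calls of H2-DMa and H2-Eb2 were lost after quantile normalization (limma adjusted p = 0.279 and 0.17), and that of H2-DMa also in 4 of the 12 fits without 1 array. H2-Ke6, the member outside both classes, was above background on no array and with medians subtracted passed in no comparison. After quantile normalization it passed as higher in NP, by 0.92 in TonEBP +/- (limma adjusted p = 0.0253) and 0.88 in WT (limma adjusted p = 0.0285).

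**Figure D3:**
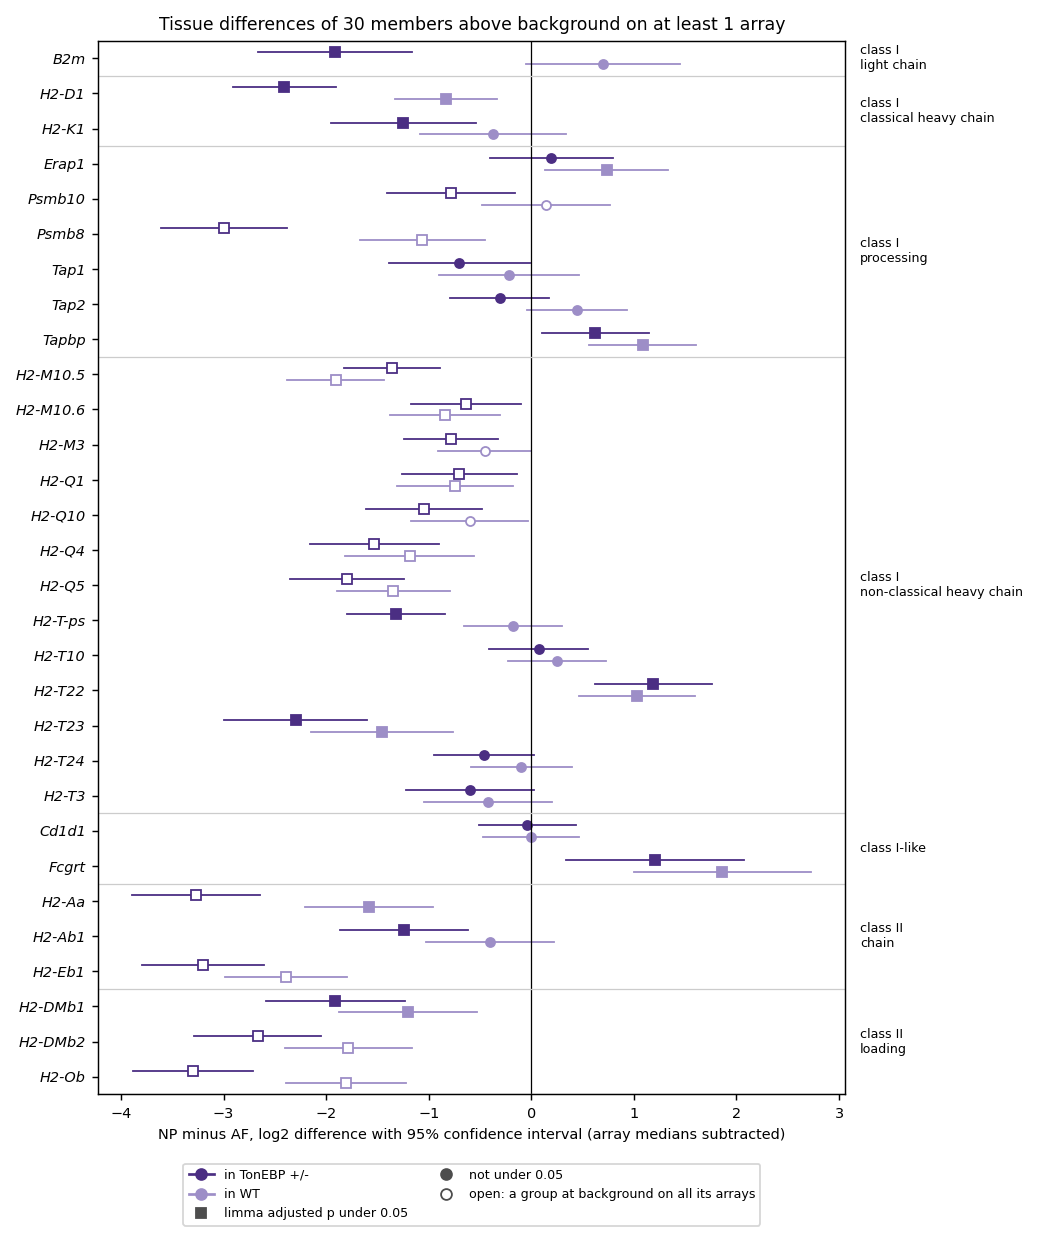
Difference between NP and AF after subtracting array medians (log2, horizontal axis) with its 95% confidence interval for the 30 members above background on at least 1 array, in TonEBP +/- and in WT, grouped by role; squares mark a limma adjusted p under 0.05 and open symbols a group at background on all its arrays. All class II symbols lie left of 0, and Tapbp, H2-T22 and Fcgrt lie right of 0 in both genotypes, although Tapbp lay left of 0 after quantile normalization.

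Genes of the compartment where class II molecules are loaded were also measured. Of 11 measured, 5 passed the limma adjusted p in AF TonEBP +/-, all higher: the lysosomal proteases Ctss (1.56), Lgmn (1.12) and Ctsz (1.24), the thiol reductase Ifi30 (1.63) and the membrane protein Lamp2 (1.23), as log2 differences. The list's median was 0.81, against -0.04 over all clusters, of which 2.76% passed as higher. Ctss ran over 11.39 to 13.52 in AF TonEBP +/-, against 10.52 to 10.98 in AF WT, and Ifi30 over 12.01 to 14.05 in AF TonEBP +/-, against 10.75 to 11.53 in AF WT. Without AF TonEBP +/- array 3, AF WT array 2 or AF WT array 3 none of the 11 passed, and with the AF arrays alone none did. In NP none passed, with a median of 0.10, and 2 had an unadjusted p under 0.05, as had 827 of all 22206 clusters. Between the tissues 4 were higher and 3 lower in NP in TonEBP +/-, against 30.9% and 25.3% of all clusters. In WT 7 were higher and 2 lower, against 33.7% and 31.3%. Ctss was among the lower ones in WT (-2.75, limma adjusted p = 4.34e-05) and Lgmn among the higher ones (4.74, limma adjusted p = 3.59e-09).

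None of 17 regulators of class I and II transcription and interferon gamma signalling, among them Rfx5, Nfya, Creb1, Irf1 and Ifngr1, passed in AF or NP between genotypes. Their median was 0.56 in AF, with 16 of 17 positive and 6 at an unadjusted p under 0.05, and -0.02 in NP, with 1 at an unadjusted p under 0.05. Of all 22206 clusters, 5158 had such an unadjusted p in AF and 827 in NP. The interaction of Spi1, the myeloid transcription factor PU.1, was -3.34 (limma adjusted p = 0.0407). None of 7 costimulatory genes, among them Cd80, Cd86 and Cd40, passed either, with medians of 0.27 in AF and -0.05 in NP and 1 gene at an unadjusted p under 0.05 in each. Of 11 interferon response genes, 1 passed in AF, Bst2 (1.33, limma adjusted p = 0.0369), and their median was -0.04 in AF, next to the -0.04 of all clusters. In AF, 5 of the 11 were at background on every TonEBP +/- array and 5 on every WT array, which limits what that median can show. In NP none passed, with a median of -0.28 and 1 at an unadjusted p under 0.05.

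Some markers of immune cells were also higher in AF TonEBP +/- discs, where 2.76% of all clusters passed as higher. In AF, 2 of 11 macrophage markers were higher in TonEBP +/-, Csf1r, the receptor for the macrophage growth factor (1.98), and Aif1 (1.35), and the mean over the 11 was 9.78 to 10.59 in AF TonEBP +/-, against 8.98 to 9.46 in AF WT. C1qc was at background on every array, and none of the 11 passed without AF TonEBP +/- array 3, AF WT array 1 or AF WT array 3. The highest macrophage mean was that of AF TonEBP +/- array 3, which also had the highest B2m, H2-K1, H2-Aa and H2-Ab1. That array also had the highest neutrophil (17.24), B cell (8.15), T and natural killer cell (7.93) and endothelial (9.16) means. Its interquartile range was the widest of the AF arrays (3.11). Psmb8 and the interferon response mean were highest on AF TonEBP +/- array 1 (10.48 and 8.05), and the dendritic cell mean on AF WT array 1 (6.92). Neutrophil and precursor genes were higher in AF TonEBP +/- for 4 of 12, Camp, Ctsg, Prtn3 and Cebpe, with a mean of 16.56 to 17.24 in AF TonEBP +/-, against 15.59 to 16.00 in AF WT. All 12 differences were positive in AF, and none of the 12 passed without AF TonEBP +/- array 3 or AF WT array 2. None of 9 dendritic cell markers passed and 2 had an unadjusted p under 0.05, the means being 6.58 to 6.72 in AF TonEBP +/-, against 6.81 to 6.92 in AF WT, and 7 of the 9, Itgax and Flt3 among them, were at background on every array. Of all 22206 clusters, 5158 had an unadjusted p under 0.05 in AF. None of 7 B cell markers passed, at an adjusted or an unadjusted p, the means being 7.68 to 8.15 in AF TonEBP +/-, against 7.67 to 7.95 in AF WT. Of these 7, 3 were at background on every AF TonEBP +/- array and 2 on every AF WT array. Of T and natural killer cell markers 1 of 8 was higher, Nkg7, with means of 7.60 to 7.93 in AF TonEBP +/-, against 7.67 to 7.82 in AF WT, and of endothelial markers 1 of 6, Kdr, with means of 8.18 to 9.16 in AF TonEBP +/-, against 7.65 to 8.29 in AF WT. Of the 8 T and natural killer cell markers, 4 were at background on every AF TonEBP +/- array and 5 on every AF WT array. The part of these cells in the rise of the AF members was not tested.

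In NP the myeloid markers that passed were lower in TonEBP +/- discs, where 0.113% of all clusters passed, all lower. Of 12 neutrophil and precursor genes, 3 fell in TonEBP +/-, Mpo, Elane and Ctsg, with a list mean of 8.84 to 10.51 in NP TonEBP +/-, against 11.19 to 12.73 in NP WT. The count was 1 without NP TonEBP +/- array 1 or 2 or NP WT array 2, and 10 without NP WT array 3. All 12 differences were negative in NP, and the interaction passed for 8 of these 12 genes, all lower in NP, against 0.766% of all clusters. Of 11 macrophage markers 1 fell, Lyz2, which codes for lysozyme (-2.54, limma adjusted p = 0.0289), with a mean of 6.64 to 7.06 in NP TonEBP +/-, against 6.93 to 7.43 in NP WT, and of 6 erythroid genes 1 fell, Slc4a1, with 6.92 to 7.06 in NP TonEBP +/-, against 8.11 to 9.30 in NP WT. All 7 B cell markers were at background on every NP array. Between the tissues, 25.3% of all clusters passed as lower in NP in TonEBP +/- and 31.3% in WT. All 12 neutrophil genes and all 6 erythroid genes were lower in NP in both genotypes. So were 9 of 11 macrophage markers in TonEBP +/- and 8 in WT, and 7 of 7 B cell markers in TonEBP +/- and 6 in WT. Csf1r went the other way and was higher in NP, by 1.43 in TonEBP +/- (limma adjusted p = 0.0344) and 3.45 in WT (limma adjusted p = 5.27e-05). The part of these cells in the values of the members was not tested.

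**Figure D4:**
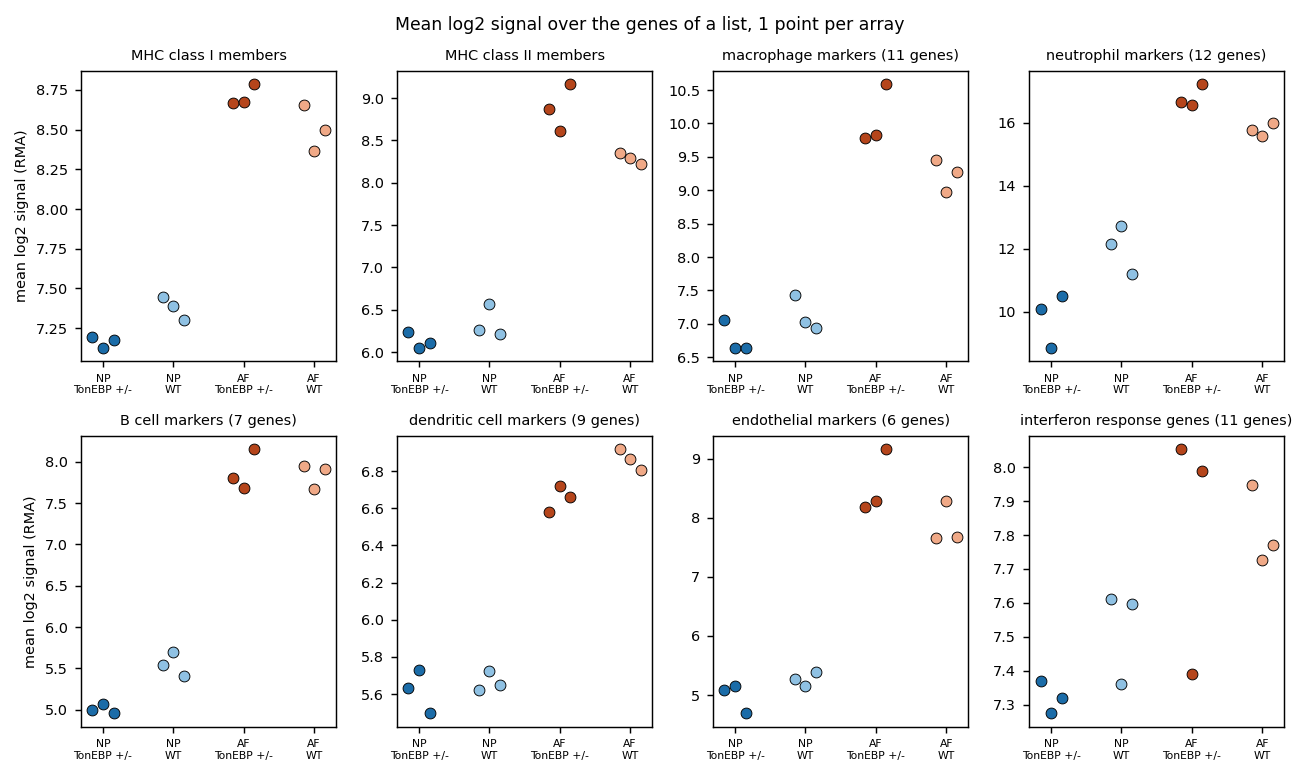
Mean deposited log2 signal (vertical axis) over the genes of each list on each of the 12 arrays (points), by group (horizontal axis): the class I and class II members and 6 marker lists; each panel has its own axis. Class II members and macrophage and neutrophil markers all lie higher on the 3 AF TonEBP +/- arrays than on the 3 AF WT arrays, while the B cell means overlap in AF.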

How the data were processed

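RNA from the dissected disc tissues was labelled and hybridised to Clariom S Mouse arrays, 12 in all, 3 per group. The deposited values are log2 signals of 28846 probe sets that the authors made with Affymetrix Expression Console and RMA, per the submitters' processing notes, which give no version or build. Whether all arrays were normalized together is not given in the sources used here. The 6640 control probe sets were left out and 22206 transcript clusters tested. A limma 3.58.1 model in R 4.3.3 gave each of the 4 groups its mean over all 12 arrays, with empirical Bayes variances and Benjamini-Hochberg adjustment over all clusters, at 0.05. Genotype and interaction tests used the deposited values, and tissue tests the values minus each array's median. The background level was the 95th percentile of 23 background probe sets per array. Where all arrays of 1 group were below it, the fold is a bound against that level. The script was tested on simulated data. No pair of arrays held the same values, the smallest SD of a difference between 2 arrays being 0.414.

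The members and gene lists were chosen with earlier results of these data known. Array values were given for each member that passed in any comparison, or was above background on all 3 arrays of a group. Members above background on no array were named with no fold. Where a gene had several clusters, the one with the highest mean over the arrays was used. Promoters came from RefSeq (GRCm38.p6), matched by gene ID. Per the labels each sample is tissue of 1 animal. They do not say whether NP and AF samples share animals, and tissue and interaction tests treat the 12 as independent. The small number of arrays limits the precision. Alternatives were 2 other scalings, a background filter, another variance model, array weights, fits of only the arrays compared, gene means, and leaving out each array in turn. Some listed genes are not reported here. Figures were drawn with matplotlib 3.10.9 in Python 3.11.15.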

Additional observations from a re-analysis of the deposited data

Results flagged for a closer look

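For 4 members the genotype difference was not the same in both tissues, by the limma test of the interaction over all 12 arrays. The difference of NP minus that of AF was -2.56 for B2m, -1.53 for H2-D1, -1.89 for Psmb8 and -1.63 for Psmb9 on the log2 scale. Each was higher in TonEBP +/- than in WT on average in AF and lower in NP. Psmb9 was above background on no array and Psmb8 on no NP array, so their values carry signal near background. Leaving out AF WT array 2, NP WT array 2 or NP TonEBP +/- array 1 or 2 left none of the 4 past the threshold. On the same arrays, 8 of 12 neutrophil and precursor genes also passed with a lower genotype difference in NP than in AF, against 0.766% of all clusters. The part of these neutrophil genes in the 4 results was not tested.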

How the results depend on the processing

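The 6 members called in AF became 7 with array medians subtracted, 10 after quantile normalization, 11 with array weights, 5 with gene means and 0 with the 6 AF arrays alone (limma). Over all clusters, 1347 were called in AF, against 1982 after quantile normalization, 2815 with array weights, 676 with gene means and 3 with the 6 AF arrays alone. Leaving out 1 array gave 1 to 13 in AF and 0 to 6 for the interaction, of which 4 were called. In NP the count was 0 in every setting, with 5 members at an unadjusted p under 0.05 in the fit reported, as were 827 of all 22206 clusters. For NP against AF in TonEBP +/- the 32 calls became 21 with the background filter, under which only 28 members were tested, and 25 to 34 without 1 array. In WT the 25 calls became 17 with that filter and 20 to 28 without 1 array. After quantile normalization 25 of the 32 kept their call and direction, 6 lost it and 1 turned, and in WT 17 of the 25, with 6 lost and 2 turned. The 4 interaction calls became 3 under that scaling, Psmb9 being lost (limma adjusted p = 0.0547). Called higher in NP were 3 of 32 in TonEBP +/- and 4 of 25 in WT, against 0 of 40 and 1 of 37 on the deposited values. Of all clusters called on the deposited values, 4437 of 16510 in TonEBP +/- and 4921 of 17387 in WT were higher. The sign turned for Erap1 in WT, to -0.00525 on the deposited values and -0.14 after quantile normalization, for Tapbp in WT, to -0.43 after quantile normalization, and for Tapbp in TonEBP +/-, to -0.066 and -0.66 under the same 2 scalings. No paired analysis was possible because the labels number the 12 arrays in 1 run and give no number that groups share. The median signal of NP arrays was lower and the background level of AF arrays higher, which limits what low members can show. Of the 46 members, 16 were above background on no array. The cause of these shifts was not tested. Settings that remove genes or arrays also leave fewer of them in the fit.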
